A study of Mus musculus with 18 samples.

Results

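Collagen genes were read in RNA from mouse forepaws, with and without arthritis and with and without the gene Sema3b. The members are every gene of the deposited table whose symbol has the form Col, a number, a and a number, leaving out the cartilage collagens Col2a1, Col9a1 and Col11a2. Of 44 such symbols, 41 remained among the 18585 genes of the table: 9 fibrillar genes, 8 basement membrane genes and 24 of other types. The label of the set, collagens outside cartilage, holds only in part, because Col9a2, Col9a3, Col10a1 and Col11a1 stay in it and cartilage also makes their chains. The mice were C57BL/6, either wild type (WT) or lacking Sema3b (Sema3b-/-), which encodes a secreted class 3 semaphorin, a guidance protein read by neuropilin and plexin receptors. There were 4 control libraries of each genotype and 5 arthritis libraries of each, which makes 4 groups. The labels give neither the way arthritis was induced nor the age of the animals or the tissue the deletion was limited to, if any. Titles of all control libraries open with a word that no arthritis title has, so differences in preparation that go with the titles cannot be told apart from arthritis. Titles of WT arthritis replicate 5 and Sema3b-/- arthritis replicates 1 and 2 end in RA before the bracket. The other arthritis titles open with the word Joint, and all arthritis titles hold RA inside the bracket. Below, titles that end in RA are those of these libraries only.

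Collagens are secreted proteins whose chains wind around each other into a rope-like helix. Fibrillar collagens (types I, III, V, XI and relatives) pack into the banded fibrils of bone, tendon, skin and the joint capsule, and in bone type I makes up most of the protein. Type IV forms the sheet under epithelium, vessels, muscle fibres and nerves, and the remaining types link fibrils to each other, anchor skin, form beaded filaments or sit in cell membranes. In an arthritic joint, bone and cartilage are eroded while the synovial lining and its fibroblasts expand, and all of these tissues use different mixes of the family.

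Levels are normalized counts, which are reads per gene divided by a size factor of the library. CEL-seq counts a tag at the 3' end of each transcript, so its length does not enter the value. The shallowest library, Sema3b-/- control replicate 1, held 1732783 reads and the deepest, WT arthritis replicate 2, 19464892. Sema3b itself was at 23.7 to 67.5 normalized counts in the 9 WT libraries and at 0 to 7.20 in the 9 Sema3b-/- libraries, which matches the genotype labels. Sex, read from Xist and Y-linked genes because the labels do not give it, was unequal between groups: 4 female WT controls, 2 female and 2 male Sema3b-/- controls, 1 female and 4 male WT arthritis libraries, and 4 female and 1 male Sema3b-/- arthritis libraries. Sema3b-/- control replicates 2 and 3, the male controls, stood apart: they held the highest values of their group for 25 of the 34 collagen genes tested, among them all 9 fibrillar genes. Their summed osteoblast and osteocyte markers were 24481 and 22030 normalized counts, against 3934 to 11266 in the other 6 controls. WT arthritis replicates 3 and 4 held the highest values of their group for 20 of 34 genes, and Sema3b-/- arthritis replicates 2 and 5 likewise for 20 of 34. Every marker list fixed for the paw (bone, cartilage, muscle, skin, nerve, vessel, fibroblast, tendon, fat, macrophage, neutrophil and osteoclast) had reads, and no listed gene of the table was at 0 in all 18 libraries. In the average effect of arthritis, 4 of 6 neutrophil markers rose, 2 of 6 fat and 2 of 6 pericyte markers fell, and 0 of 6 tendon and 0 of 6 osteoclast markers were called. Over all tested genes, 12.6% rose and 10.9% fell in that effect. The labels do not say that each library came from its own animal, so a p-value here sets a difference against the spread of libraries, which may be partly technical.

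A gene was tested where it reached 10 normalized counts in at least 4 libraries. This kept 13809 genes and 34 of the 41 members: 9 of 9 fibrillar, 6 of 8 basement membrane and 19 of 24 others. The 7 left out were Col19a1, Col28a1, Col4a6, Col6a4, Col4a3, Col26a1 and Col6a6. None of these 7 exceeded 14 reads in any library, and none reached 10 normalized counts in more than 2 libraries. Just inside the threshold were Col20a1, at 10 or more in 6 libraries, and Col6a5, in 8, and just outside was Col4a6, in 2.

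The collagen genes together took 3.04% ± 0.298 (SD, n = 4) of the normalized counts in WT control, 6.16% ± 4.97 (SD, n = 4) in Sema3b-/- control, 2.85% ± 2.09 (SD, n = 5) in WT arthritis and 2.64% ± 1.34 (SD, n = 5) in Sema3b-/- arthritis. The Sema3b-/- control spread came from replicates 2 and 3, at 10.1% and 10.7%, while replicates 1 and 4 were at 2.66% and 1.13%. Col1a1, Col1a2 and Col3a1 made up between 80.6% and 93.8% of the collagen sum in each library, so the sum describes mainly these 3 genes.

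By the main test, the share of collagen genes called was under that of all tested genes in each arthritis comparison. It was 0% against 4.21% in WT, 5.88% against 12.4% in Sema3b-/- and 17.6% against 23.5% on average. The count models edgeR and DESeq2 called more members, with no share over all genes given here. The plot of arthritis effects gives all 34 genes in both genotypes. In WT forepaws, limma (a linear model with a variance shared across genes, on log2 of the value plus 1) called 0 of 34 members at a Benjamini-Hochberg adjusted p under 0.05, where 4.21% of all tested genes were called (2.64% higher and 1.58% lower). Unadjusted p was under 0.05 for 3 members, edgeR called 0 and DESeq2 called 3 (Col13a1 lower, Col3a1 and Col14a1 higher). In Sema3b-/- forepaws 2 of 34 members were called, both lower, where 12.4% of all tested genes were called (6.84% higher and 5.55% lower): Col13a1 and Col10a1. The authors' deposited tables call 0 of the 27 members that have an adjusted p in WT, where they call 4.84% of genes with one. They call 4 of 33 such members in Sema3b-/- (Col10a1, Col13a1, Col1a1 and Col9a3), where they call 7.0%. Among the members without an adjusted p in WT are Col13a1, Col7a1 and Col20a1, so the authors' table could not call them there. In Sema3b-/-, edgeR called 7 members (Col10a1, Col13a1, Col1a1, Col24a1, Col9a2 and Col9a3 lower, Col6a5 higher) and DESeq2 9 (Col10a1, Col11a1, Col13a1, Col1a1, Col1a2, Col22a1, Col24a1, Col9a2 and Col9a3, all lower). The effect averaged over the genotypes, which uses the same 18 libraries, called 6 of 34, where 23.5% of all genes were called (12.6% higher and 10.9% lower). Col13a1, Col10a1, Col1a1, Col7a1 and Col20a1 fell and Col14a1 rose. EdgeR called 10 on average (7 lower, 3 higher) and DESeq2 12 (8 lower, 4 higher). The shares of all genes called by edgeR and DESeq2 are not given here, so their larger counts have no background to be read against. The median log2 change of the 34 members was -0.11 in WT, -0.35 in Sema3b-/- and -0.27 on average, beside -0.02, -0.01 and -0.01 over all tested genes. By class, the average effect called 1 of 9 fibrillar, 0 of 6 basement membrane and 5 of 19 other genes. Without Sema3b-/- control replicates 2 and 3, the count in Sema3b-/- went from 2 to 0 and that of the average effect from 6 to 2 (Col13a1 lower and Col3a1 higher). With female libraries only, where WT arthritis has a single library whose spread is taken from the other groups, the counts were 1 (Col3a1 higher) in Sema3b-/- and 1 (Col15a1 lower) on average.

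**Figure D1:**
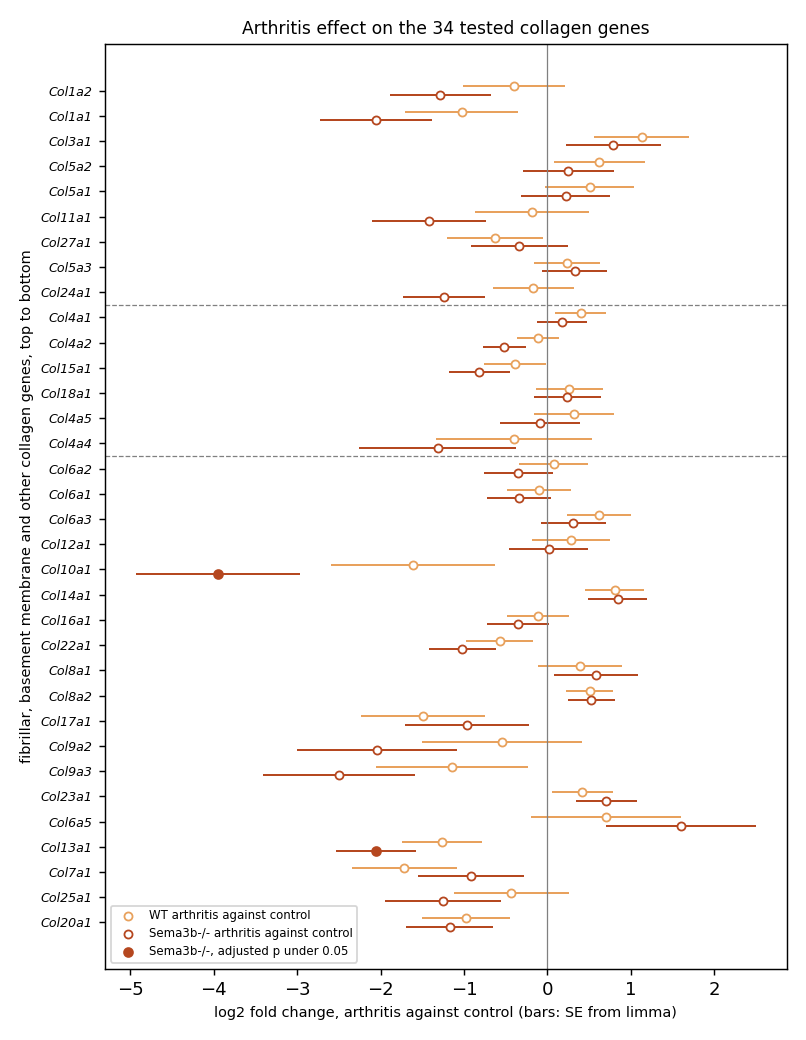
Log2 fold change of arthritis against control for the 34 tested collagen genes (rows, in 3 blocks from top to bottom: fibrillar, basement membrane, other), in WT (light) and Sema3b-/- (dark), with bars for the SE from limma. Filled points mark the 2 genes called in Sema3b-/-, Col10a1 at -3.95 and Col13a1 at -2.05, while Col9a3 (-2.50) and Col1a1 (-2.06) lie as far left as Col13a1 with wider bars.

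Among the fibrillar genes, the alpha 1 chain of type I collagen was lower in arthritis on average, and that of type III had a positive change that did not pass. Col1a1 (chr11:94936224-94953042 on mm10, plus strand) encodes the alpha 1 chain of type I collagen, the main protein of bone and tendon. Its normalized counts were 65422, 66981, 72719 and 75434 in WT control. In Sema3b-/- control they were 56748, 272799, 319299 and 25622. In WT arthritis they were 28788, 15235, 83484, 46275 and 28213, and in Sema3b-/- arthritis 15891, 43663, 22099, 15652 and 45086. WT controls were tightly grouped, Sema3b-/- control replicates 2 and 3 were far above every other library, and both arthritis groups overlapped their controls. The log2 change was -1.03 (SE 0.67, adjusted p = 0.392) in WT, -2.06 (SE 0.67, adjusted p = 0.0586) in Sema3b-/- and -1.54 (SE 0.48, adjusted p = 0.0304) on average. The average call was lost when WT control replicate 3 or 4 or Sema3b-/- control replicate 2 or 3 was left out, with an adjusted p of up to 0.0601, with a term for titles that end in RA (adjusted p = 0.074) and with females only (-1.03, adjusted p = 0.114). In Sema3b-/- it was called by edgeR (adjusted p = 0.015) and DESeq2 (adjusted p = 0.000287). Without Sema3b-/- control replicates 2 and 3 together the average change was -0.80 (adjusted p = 0.132). The authors' deposited table gives Col1a1 a log2 change of -2.57 and an adjusted p of 0.0197 in Sema3b-/-. Here and below, fewer cells that make a collagen and less of its RNA in each cell cannot be told apart, since whole paws were used.

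Most bone markers were lower in the average effect, as Col1a1 was. Of 10 osteoblast and osteocyte markers, 7 fell in the average effect, where 10.9% of all tested genes fell, and 0 rose. Bglap (osteocalcin, a protein of bone-forming cells) ran from 86.6 to 131 among WT controls, 40.8 to 472 among Sema3b-/- controls, 5.10 to 47.1 among WT arthritis libraries and 5.03 to 33.1 among Sema3b-/- arthritis libraries, with a log2 change of -3.05 (SE 0.46, adjusted p = 0.00032). The summed list, in which Spp1 is also made by macrophages, overlapped between groups: 8914 to 11266, 3934 to 24481, 6482 to 16963 and 7582 to 14464 normalized counts in the same order of groups. Its mean was higher in WT arthritis (11596) than in WT control (10322), and lower in Sema3b-/- arthritis (10477) than in Sema3b-/- control (15292). The part of bone cell number in the Col1a1 result was not tested.

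Col1a2, the partner chain of type I and the fibrillar gene with the highest mean, was not called in any comparison by limma over all 18 libraries without a covariate. Its normalized counts were 89635, 85373, 104128 and 94964 in WT control and 85481, 348342, 368248 and 40450 in Sema3b-/- control. They were 58204, 36380, 151380, 106182 and 51207 in WT arthritis and 39867, 112485, 52963, 34421 and 92674 in Sema3b-/- arthritis. The average log2 change was -0.84 (SE 0.43, adjusted p = 0.165). It was called as lower with sex as a term (-1.18, adjusted p = 0.0355), by DESeq2 (-0.94, adjusted p = 0.0473) and without Sema3b-/- control replicate 4. Its pattern over libraries followed that of Col1a1, with the same libraries on top, while the arthritis libraries stood less far below the controls.

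Col3a1 (chr1:45311538-45349706, plus strand), whose product forms the thin fibrils of skin, vessels and healing tissue, had 20785, 21081, 29074 and 25126 normalized counts in WT control and 22627, 54107, 60171 and 15651 in Sema3b-/- control. It had 23043, 20176, 139729, 110080 and 54285 in WT arthritis and 40157, 91870, 48805, 36615 and 89037 in Sema3b-/- arthritis. WT arthritis replicates 1 and 2 lay within or just below the range of the WT controls and the other 3 above all WT controls. The fitted log2 change came to 1.13 (SE 0.57, adjusted p = 0.266) in WT, 0.79 (SE 0.57, adjusted p = 0.382) in Sema3b-/- and 0.96 (SE 0.40, adjusted p = 0.0932) on average. The average change was 1.36 (adjusted p = 0.0389) without Sema3b-/- control replicates 2 and 3, and it was called by edgeR (1.12, adjusted p = 0.0416) and DESeq2 (1.11, adjusted p = 0.0122). All WT controls were female and 4 of 5 WT arthritis libraries male, so in WT only 1 library tells sex and arthritis apart. A sex term also draws on Sema3b-/- control replicates 2 and 3, the male controls that stood apart. When sex was a term, the WT change was 0.08 (adjusted p = 0.965), and among females the single WT arthritis library gave -0.05. Among females in Sema3b-/- it was 1.43 (adjusted p = 0.0353). Of 8 fibroblast markers, 2 rose in the average effect (Pdpn by 1.95 and Dpt by 0.53 on the log2 scale) and 0 fell, where 12.6% of all tested genes rose and 10.9% fell. Their sum ran from 94705 to 113025 among WT controls, 52271 to 81605 among Sema3b-/- controls, 51746 to 206792 among WT arthritis libraries and 54774 to 77086 among Sema3b-/- arthritis libraries, and its part in the Col3a1 values was not tested.

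**Figure D2:**
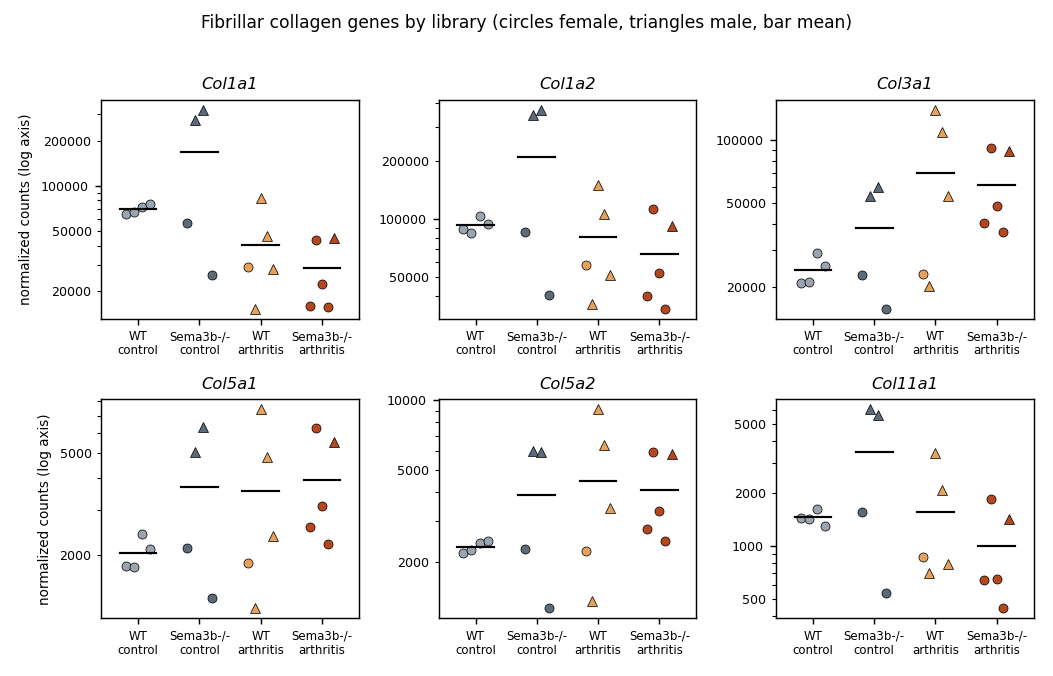
Normalized counts (log axes) of 6 fibrillar collagen genes in each of the 18 libraries by group, with circles for female and triangles for male libraries and a bar at the group mean. The 2 male Sema3b-/- controls are the highest of their group in all 6 panels, at 272799 and 319299 for Col1a1, and in the Col3a1, Col5a1 and Col5a2 panels most arthritis libraries lie above most controls.

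The remaining 6 fibrillar genes were not called in any comparison by limma over all 18 libraries. Type V chains, which sit inside type I fibrils and set their width, changed on average by 0.36 (Col5a1), 0.44 (Col5a2) and 0.28 (Col5a3) on the log2 scale, with adjusted p of 0.425 to 0.5. Col5a2 lies 24614 bases from Col3a1 on the opposite strand of chromosome 1. Col11a1, the type XI chain of cartilage that is also found in other fibrils, changed by -0.19 in WT and -1.42 (SE 0.68, adjusted p = 0.186) in Sema3b-/-. Col24a1, a minor fibrillar gene expressed in bone, was among the 5 lowest p in Sema3b-/-. Its normalized counts were 76.9, 193, 151 and 26.4 in Sema3b-/- control and 41.5, 70.1, 37.2, 24.4 and 25 in Sema3b-/- arthritis, and the groups overlapped through control replicate 4. On the log2 scale, arthritis differed from control by -1.24 (SE 0.49, adjusted p = 0.102) there and -0.17 (adjusted p = 0.87) in WT. Col27a1, a fibrillar gene of cartilage, changed by -0.48 on average (adjusted p = 0.408). Leaving out Sema3b-/- control replicate 4 alone, the library with the lowest Col1a1 of its group, raised the called members in Sema3b-/- from 2 to 10, adding Col1a1, Col1a2, Col11a1, Col24a1, Col22a1, Col25a1, Col9a2 and Col9a3, all lower. The share of all genes called in that fit is not given here.

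Inside a library, the balance between fibrillar genes separated all arthritis libraries from all controls, which the level of no tested member did (1.33% of all tested genes were higher and 0.956% lower in all 10 arthritis than in all 8 control libraries). These ratios were chosen after their values were seen and are given as a description, with no test. Col3a1 over Col1a1 was 0.318, 0.315, 0.4 and 0.333 in WT control and 0.399, 0.198, 0.188 and 0.611 in Sema3b-/- control. It was 0.8, 1.32, 1.67, 2.38 and 1.92 in WT arthritis and 2.53, 2.1, 2.21, 2.34 and 1.97 in Sema3b-/- arthritis. All 10 arthritis libraries lay above all 8 controls, so the same order within each sex follows and is no further check. Among females the ratio was 0.315 to 0.611 in 6 controls and 0.8 to 2.53 in 5 arthritis libraries. Among males it was 0.188 to 0.198 in 2 controls and 1.32 to 2.38 in 5 arthritis libraries. The male Sema3b-/- controls that stood apart in level had the lowest ratios.

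Col1a2 over Col1a1, the ratio of both chains of type I, was 1.15 to 1.58 in the 8 controls and 1.81 to 2.58 in the 10 arthritis libraries, with no overlap. The ratio describes tag counts at the 3' ends, and the protein was not measured. Col3a1 over Col1a2 ran from 0.155 to 0.387 in controls and from 0.396 to 1.06 in arthritis. Col5a1 over Col1a1 ran from 0.0184 to 0.0533 in controls and from 0.0649 to 0.162 in arthritis, and Col5a2 over Col1a1 from 0.0187 to 0.0494 and from 0.0778 to 0.175. Col11a1 over Col1a1 ran from 0.0174 to 0.0277 and from 0.0278 to 0.046, so that its groups almost touched. Col5a2 over Col5a1, both chains of type V, overlapped, at 0.927 to 1.25 in controls and 0.951 to 1.43 in arthritis.

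Over all members, 26 had at least 10 normalized counts in every library, and 19 of their 325 ratios (5.85%) separated the 10 arthritis from the 8 control libraries, beside 2.23% of all pairs of genes at that level. Col1a1 was the denominator in 9 of the 19. Over Col1a1, 9 of the 25 other members were higher in all arthritis libraries (Col1a2, Col3a1, Col5a1, Col5a2, Col11a1, Col6a3, Col8a1, Col12a1 and Col14a1). The same held for 299 of 10493 genes, or 2.85%, and members share libraries and tissues, so these counts are not independent. As a share of the collagen sum, Col1a1 took 31.8% to 34.7% among WT controls, 26.4% to 40.1% among Sema3b-/- controls, 15.6% to 22.5% among WT arthritis libraries and 14.0% to 17.1% among Sema3b-/- arthritis libraries. Col3a1 took 10.6% to 12.7%, 7.47% to 16.1%, 18% to 37.1% and 32.4% to 35.4% in the same order.

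**Figure D3:**
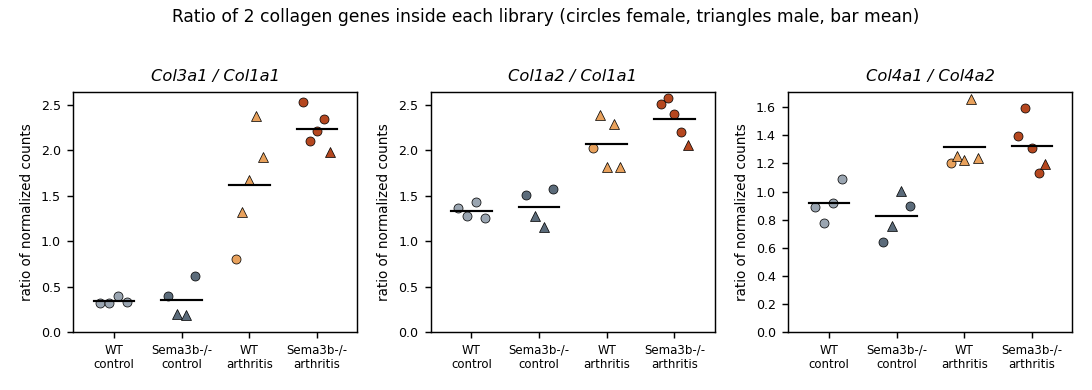
Ratio of normalized counts of 2 collagen genes inside each library (linear axes from 0), by group, with circles for female and triangles for male libraries and a bar at the group mean. In each of the 3 panels the 10 arthritis libraries lie above the 8 controls, at 0.8 to 2.53 against 0.188 to 0.611 for Col3a1 over Col1a1.

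For Col1a2 and Col3a1, the genes set against Col1a1 in the plot of ratios, the RefSeq start windows (GRCm38.p6, the mm10 build, 250 bases before to 50 after the start site) are shown with the promoter motifs each holds. Col1a1 has no window in the table. The Col1a2 window, chr6:4505368-4505667 on the plus strand, holds the CCAAT box motif on both strands, in capitals (CCAAT, and ATTGG for the minus strand), and no TATAAA. It also holds 2 matches to GGGCGG, 205 and 188 bases before the start site, left in small letters. The Col3a1 window, chr1:45311288-45311587 on the plus strand, holds TATAAA, in capitals, 117 bases before the start site, and no CCAAT or GGGCGG.
Col1a2: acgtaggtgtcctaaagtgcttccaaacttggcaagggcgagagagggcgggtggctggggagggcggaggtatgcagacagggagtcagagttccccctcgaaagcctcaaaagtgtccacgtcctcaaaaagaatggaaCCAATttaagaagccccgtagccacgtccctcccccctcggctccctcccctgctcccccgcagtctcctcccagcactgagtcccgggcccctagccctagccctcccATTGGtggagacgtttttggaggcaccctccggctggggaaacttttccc
Col3a1: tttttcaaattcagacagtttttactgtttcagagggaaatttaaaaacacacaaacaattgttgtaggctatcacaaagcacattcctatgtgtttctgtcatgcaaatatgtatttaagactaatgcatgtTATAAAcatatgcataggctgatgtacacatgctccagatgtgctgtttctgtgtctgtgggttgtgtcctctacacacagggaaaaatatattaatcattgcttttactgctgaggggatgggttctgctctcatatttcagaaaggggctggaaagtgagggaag
Searched on both strands, CCAAT was found in 37.4% of all 32851 windows and in 12 of the 35 windows of 33 member genes, TATAAA in 13.6% and in 4 of 35, and GGGCGG in 35.7% and in 22 of 35. A match is a description of the letters and not a bound site.

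No basement membrane gene was called by limma over all libraries in any comparison, and the main type IV genes differed by less than their spread. With sex as a term, Col4a2 and Col15a1 were called in the average effect. Col4a1 (chr8:11198423-11312826, minus strand), the gene of this class with the highest mean, encodes with Col4a2 the chains found in nearly all basement membranes. Its normalized counts were 693, 657, 887 and 883 in WT control and 562, 1131, 1414 and 631 in Sema3b-/- control. They were 881, 639, 1449, 1363 and 996 in WT arthritis and 853, 1381, 985, 591 and 1335 in Sema3b-/- arthritis. The groups overlapped, with an average log2 change of 0.29 (SE 0.21, adjusted p = 0.337). Col4a2 ran from 700 to 1493 in controls and from 510 to 1181 in arthritis, with an average change of -0.31 (SE 0.18, adjusted p = 0.213).

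These partner genes overlap at their starts. Their RefSeq start sites on opposite strands of chromosome 8 are 21 bases apart, and each lies inside the other gene. The windows are shown because the genes share part of them and the ratio of their counts differed between control and arthritis. Capitals mark the 78 bases (chr8:11312777-11312854) that both windows hold, as reverse complements of each other. Col4a1 is read from the minus strand of chr8:11312777-11313076 and Col4a2 from the plus strand of chr8:11312555-11312854.
Col4a1: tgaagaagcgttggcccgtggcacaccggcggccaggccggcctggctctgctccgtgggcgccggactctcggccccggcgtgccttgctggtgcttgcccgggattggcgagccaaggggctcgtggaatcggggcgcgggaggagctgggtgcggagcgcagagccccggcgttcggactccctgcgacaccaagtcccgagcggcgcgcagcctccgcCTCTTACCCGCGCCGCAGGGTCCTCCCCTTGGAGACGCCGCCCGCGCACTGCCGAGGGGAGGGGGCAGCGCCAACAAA
Col4a2: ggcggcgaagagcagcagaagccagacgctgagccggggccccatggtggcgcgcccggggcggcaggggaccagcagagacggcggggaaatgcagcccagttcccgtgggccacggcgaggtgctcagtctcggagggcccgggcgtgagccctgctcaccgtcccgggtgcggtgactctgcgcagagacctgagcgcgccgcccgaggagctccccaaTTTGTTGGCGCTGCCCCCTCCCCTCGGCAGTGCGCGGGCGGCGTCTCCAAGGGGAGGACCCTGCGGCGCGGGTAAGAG
Col4a1 over Col4a2 was 0.892, 0.779, 0.922 and 1.09 in WT control, 0.644, 0.757, 1 and 0.901 in Sema3b-/- control, 1.2, 1.25, 1.23, 1.66 and 1.24 in WT arthritis and 1.39, 1.6, 1.31, 1.14 and 1.2 in Sema3b-/- arthritis. All arthritis libraries were above all controls, by a narrow margin between 1.09 and 1.14. The same order within females (0.644 to 1.09 against 1.14 to 1.6) and males (0.757 to 1 against 1.2 to 1.66) follows from this and is no further check. Of 10493 genes, 279 (2.66%) had such a ratio to Col4a2, and this ratio too was chosen after its values were seen. The predicted gene Gm15418 lies antisense to the last kilobase of Col4a1, and the sources used here do not give the strand setting of the counting, so reads of such pairs (Col10a1, Col18a1 and Col9a3 have a partner too) may not be told apart.

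The other 4 tested basement membrane genes were Col15a1, Col18a1, Col4a4 and Col4a5. Col15a1 and Col18a1 encode the collagens of the basement membrane zone whose ends release the fragments restin and endostatin. Col15a1 changed by -0.60 on average (SE 0.26, adjusted p = 0.102). When sex was a term, the Col15a1 change was -0.79 (adjusted p = 0.0292) and among females -0.83 (adjusted p = 0.0343), both past the threshold, while without Sema3b-/- control replicates 2 and 3 it was -0.36 (adjusted p = 0.375). Col18a1 changed by 0.25 (adjusted p = 0.541). Col4a4 and Col4a5, chains of the specialised network known from kidney, were near the limit of counting: Col4a4 was listed at 0 in Sema3b-/- control replicate 1 and Sema3b-/- arthritis replicate 2, where 3 reads, the limit a count of 0 allows, correspond to 12.1 and 2.84 normalized counts. These limits cover counting error only. Col4a3 and Col4a6, under the filter, lie next to Col4a4 and Col4a5, at gaps of 71 and 1308 bases on the opposite strand.

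Laminins form the other network of the basement membrane. Of 10 tested laminin chain genes, 1 rose and 5 fell in the average effect, where 12.6% of all tested genes rose and 10.9% fell. Lamb2 fell by 0.79 on the log2 scale (adjusted p = 0.00041), Lama2, the muscle and nerve chain, by 0.76 (adjusted p = 0.004), and Lama5 by 0.67 (adjusted p = 0.00881). Lamb1 rose by 1.06 (adjusted p = 0.00922), from 206 to 227 among WT controls and 175 to 334 among Sema3b-/- controls to 216 to 920 among WT arthritis and 295 to 769 among Sema3b-/- arthritis libraries. Endothelial marker sums overlapped in all groups, at 1062 to 1964 normalized counts, with 1 of 6 markers lower (Vwf) and 0 higher in the average effect. Schwann cell marker sums did not overlap: 4562 to 6797 in controls and 1801 to 3742 in arthritis, with 6 of 6 markers lower. Their part in the laminin values was not tested.

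Among the other types, 2 genes with a membrane-bound or growth-plate product fell in Sema3b-/- arthritis. Col13a1 (chr10:61838236-61979108, minus strand) encodes a collagen that spans the cell membrane and is known from the neuromuscular junction. Its normalized counts were 59.7, 37.9, 47.8 and 33.3 in WT control and 60.7, 101.1, 85.5 and 18 in Sema3b-/- control. They were 20.7, 16.6, 20.7, 13.6 and 17.1 in WT arthritis and 15.5, 34.1, 5.03, 8.71 and 13.2 in Sema3b-/- arthritis. In WT no arthritis library reached a control, which 4.71% of all tested genes did in this direction, and Col13a1 was the only member; 0 members lay above all WT controls, which 5.82% of genes did. In Sema3b-/- the groups overlapped through control replicate 4 and arthritis replicate 2. The log2 change was -1.27 (SE 0.48, adjusted p = 0.139) in WT, -2.05 (SE 0.48, adjusted p = 0.0113) in Sema3b-/- and -1.66 (SE 0.34, adjusted p = 0.00236) on average. Both calls held when any 1 library was left out, with adjusted p up to 0.0426 and 0.00685. Without Sema3b-/- control replicates 2 and 3, the change was -1.32 (adjusted p = 0.143) in Sema3b-/- and -1.29 (adjusted p = 0.0204) on average. Fitting only the 2 Sema3b-/- groups gave an adjusted p of 0.061, and females only gave -1.33 (adjusted p = 0.228) there and -1.19 (adjusted p = 0.201) on average. The difference between genotypes, the interaction, was -0.78 (SE 0.68, adjusted p = 0.974). Of 8 skeletal muscle markers, 3 fell and 0 rose in the average effect, where 10.9% of all tested genes fell and 12.6% rose. Their sum ran from 93665 to 125360 among WT controls, 94120 to 264556 among Sema3b-/- controls, 9454 to 171799 among WT arthritis libraries and 10394 to 91440 among Sema3b-/- arthritis libraries, and its part in the Col13a1 result was not tested.

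Col10a1 (chr10:34389981-34397085, plus strand) encodes the short-chain collagen made by hypertrophic chondrocytes, the cells of the growth plate that precede bone. Its normalized counts were 758, 1068, 278 and 610 in WT control and 1003, 4853, 1980 and 130 in Sema3b-/- control. They were 750, 327, 336, 48.5 and 76.7 in WT arthritis and 170, 36, 29.1, 102 and 76.4 in Sema3b-/- arthritis. All Sema3b-/- arthritis libraries but replicate 1 lay under every control of either genotype, and in WT the groups overlapped. The fitted log2 change came to -1.61 (SE 0.98, adjusted p = 0.36) in WT, -3.95 (SE 0.98, adjusted p = 0.0187) in Sema3b-/- and -2.78 (SE 0.69, adjusted p = 0.0108) on average. The Sema3b-/- call was lost without control replicate 2 or 3 (adjusted p up to 0.056), without both (-2.40, adjusted p = 0.172), with only the 2 groups fitted (adjusted p = 0.0579), with females only (-2.44, adjusted p = 0.175) and with a term for titles that end in RA (-3.76, adjusted p = 0.0577). The average call held when any 1 library was left out, and was lost without Sema3b-/- control replicates 2 and 3 together (adjusted p = 0.0559) and with females only (-1.07, adjusted p = 0.456). The authors' deposited table has -4.59 with an adjusted p of 0.0093. Nt5dc1, antisense to the last kilobase of Col10a1, was at 10.3 to 47.6 normalized counts. The interaction was -2.34 (SE 1.39, adjusted p = 0.974).

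The start windows of the 2 genes called in Sema3b-/- both hold TATAAA, in capitals. TATAAA is found in 4 of the 35 member windows and in 13.6% of all 32851 windows. The Col3a1 window holds it too, and Col3a1 was not called by the main test. In Col10a1 (chr10:34389731-34390030, plus strand) it is 32 bases before the RefSeq start site, and in Col13a1 (chr10:61979059-61979358, minus strand) it is 237 bases before.
Col10a1: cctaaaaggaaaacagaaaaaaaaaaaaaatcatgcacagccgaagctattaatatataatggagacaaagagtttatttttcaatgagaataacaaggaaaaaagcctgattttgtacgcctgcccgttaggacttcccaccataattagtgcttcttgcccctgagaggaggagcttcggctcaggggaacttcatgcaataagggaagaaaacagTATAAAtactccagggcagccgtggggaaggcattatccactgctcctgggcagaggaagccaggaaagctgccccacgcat
Col13a1: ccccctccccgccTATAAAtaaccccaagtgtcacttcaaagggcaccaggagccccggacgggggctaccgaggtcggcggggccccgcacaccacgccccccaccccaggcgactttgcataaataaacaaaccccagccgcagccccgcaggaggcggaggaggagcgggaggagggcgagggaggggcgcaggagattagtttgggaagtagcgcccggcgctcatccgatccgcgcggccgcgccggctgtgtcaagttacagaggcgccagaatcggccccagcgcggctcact

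Cartilage markers are given beside Col10a1 and the type IX chains. Of 8 tested chondrocyte markers, 2 fell in the average effect, where 10.9% of all genes fell, Col2a1 by 2.19 (adjusted p = 0.0224) and Chad by 2.18 (adjusted p = 0.0012) on the log2 scale, and 0 rose. The summed list ran from 7065 to 11219 among WT controls, 3926 to 18994 among Sema3b-/- controls, 2501 to 8573 among WT arthritis libraries and 2063 to 3711 among Sema3b-/- arthritis libraries, and its part was not tested. Col9a3, a chain of the type IX collagen that coats cartilage fibrils, had 117, 448, 247 and 14.4 normalized counts in Sema3b-/- control and 25.9, 23.7, 4.02, 26.1 and 45.8 in Sema3b-/- arthritis. The groups overlapped through control replicate 4, the log2 change was -2.50 (SE 0.91, adjusted p = 0.0817), and the WT change was -1.14 (adjusted p = 0.486). The authors' deposited table calls Col9a3 at an adjusted p of 0.0287. Tcfl5, antisense to its last kilobase, was at 7.04 to 59.8 normalized counts. Col9a2 changed by -2.04 (adjusted p = 0.176) in Sema3b-/-. Without Col9a2, Col9a3, Col10a1 and Col11a1 the calls were 0 of 30 in WT, 1 of 30 in Sema3b-/- and 5 of 30 on average.

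Of the fibril-associated (FACIT) genes, whose products bind the surface of fibrils, Col14a1 rose and Col20a1 fell. Col14a1 (chr15:55307750-55520803, plus strand) had 382, 332, 419 and 498 normalized counts in WT control and 397, 320, 344 and 282 in Sema3b-/- control. It had 537, 287, 1418, 1172 and 691 in WT arthritis and 425, 773, 577, 458 and 879 in Sema3b-/- arthritis. In Sema3b-/- every arthritis library lay above every control, which 7.13% of all genes did in this direction (0 members lay below all controls there, beside 6.11% of genes), and in WT replicate 2 lay below the controls. On the log2 scale, arthritis differed from control by 0.81 (SE 0.35, adjusted p = 0.197) in WT, 0.84 (SE 0.35, adjusted p = 0.127) in Sema3b-/- and 0.83 (SE 0.25, adjusted p = 0.0255) on average. The average call was lost without WT control replicate 2 (adjusted p = 0.0517), with sex as a term (0.73, adjusted p = 0.0594), with the RA title term (adjusted p = 0.0538), with females only (0.55, adjusted p = 0.123) and without Sema3b-/- control replicates 2 and 3 (0.82, adjusted p = 0.0681). With only the 2 Sema3b-/- groups fitted, Col14a1 was the 1 member called there. Without WT arthritis replicate 2, which had the deepest library, Col14a1 and Col7a1 were called in WT.

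Col20a1 was just above the filter, at 5.53 to 21.3 among WT controls, 9.59 to 32.4 among Sema3b-/- controls, 1.9 to 9.6 among WT arthritis libraries and 4.02 to 11.3 among Sema3b-/- arthritis libraries. Its largest value was 34 reads, the groups overlapped in both genotypes, and the average change was -1.07 (SE 0.37, adjusted p = 0.0437), a call that was lost when any of 12 single libraries was left out. It was also lost with sex as a term (adjusted p = 0.0763), with the RA title term (adjusted p = 0.144), with females only (adjusted p = 0.437) and with no filter on low values (adjusted p = 0.0504). Col22a1, a FACIT gene of the muscle and tendon junction, changed by -0.80 on average (adjusted p = 0.0524). Col12a1 and Col16a1 changed by 0.15 and -0.23 (adjusted p = 0.773 and 0.548).

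Skin-anchoring genes are given beside keratinocyte markers. Col7a1 (chr9:108953586-108984875, plus strand) encodes the anchoring fibrils that tie the epidermis to the dermis. It had 18.8, 17.1, 18.8 and 19.6 normalized counts in WT control and 16.2, 7.82, 39.2 and 13.2 in Sema3b-/- control. It had 5.91, 18.3, 4.6, 0.851 and 4.44 in WT arthritis, the 0.851 being 1 read, and 2.59, 3.79, 18.1, 14.8 and 11.1 in Sema3b-/- arthritis. WT arthritis overlapped its controls through replicate 2 only. The log2 change was -1.71 (SE 0.63, adjusted p = 0.131) in WT, -0.91 (SE 0.63, adjusted p = 0.36) in Sema3b-/- and -1.31 (SE 0.45, adjusted p = 0.0414) on average, a call lost when any of 13 single libraries was left out, under edgeR (adjusted p = 0.086), under DESeq2 (adjusted p = 0.0558), with sex as a term (adjusted p = 0.0559), with the RA title term (adjusted p = 0.166) and with females only (adjusted p = 0.218). Col17a1, the hemidesmosome collagen of basal keratinocytes, had 338, 278, 195 and 195 in WT control and 172, 235, 16.1, 57 and 127 in WT arthritis, with a log2 change of -1.49 (SE 0.74, adjusted p = 0.262). The summed keratinocyte markers ran from 59362 to 321885 in controls and from 2440 to 89593 in arthritis. In the average effect 3 of 8 markers fell (Krt1, Krt10 and Lor) and 0 rose, where 10.9% of all tested genes fell and 12.6% rose. WT arthritis replicates 3 and 4, lowest for Col17a1, had the lowest keratinocyte sums of their group, 2440 and 10276. Sema3b-/- control replicate 4, with the highest sum (321885), had Col7a1 at 13.2. In Sema3b-/- arthritis the sums were 36882, 2563, 78624.5, 50969 and 31261, in the same order of libraries as the Col7a1 values above. WT arthritis replicate 2 had the highest Col7a1 (18.3) and the highest sum (89593) of its group. The part of the amount of skin in the sample was not tested.

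Type VI genes, whose chains form the beaded filaments around cells, were not called by limma in any comparison. Col6a2 (chr10:76595762-76623630, minus strand), the gene with the highest mean among the other types, had means of 4772 ± 281 (SD, n = 4) in WT control, 7634 ± 3429 (SD, n = 4) in Sema3b-/- control, 5992 ± 4192 (SD, n = 5) in WT arthritis and 5830 ± 2047 (SD, n = 5) in Sema3b-/- arthritis. The average change was -0.14 (SE 0.29, adjusted p = 0.765). Col6a1 changed by -0.22 (adjusted p = 0.577) and Col6a3 by 0.47 (adjusted p = 0.219). Col6a2 over Col6a1 stayed between 1.8 and 2.54 in all 18 libraries, and Col6a3 over Col6a1 was 0.292 to 0.507 in controls and 0.423 to 1.17 in arthritis. Col6a5, singled out after its values were seen, was at 518 in Sema3b-/- arthritis replicate 4 and at 1.8 to 25.1 in the other 17 libraries. Its neighbours on chromosome 9, Col6a4 and Col6a6, were under the filter, with at most 4 and 6 reads in any library.

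The remaining tested genes were the short-chain Col8a1 and Col8a2, of vessels and the eye, and the membrane collagens Col23a1 and Col25a1. Col8a2 changed by 0.52 (adjusted p = 0.0674) and Col8a1 by 0.49 (adjusted p = 0.334) on average. Col23a1 changed by 0.56 (adjusted p = 0.119) and Col25a1 by -0.84 (adjusted p = 0.216). Col8a2 and Col23a1 lay in the same direction in both genotypes, at 0.51 and 0.53 and at 0.42 and 0.71.

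**Figure D4:**
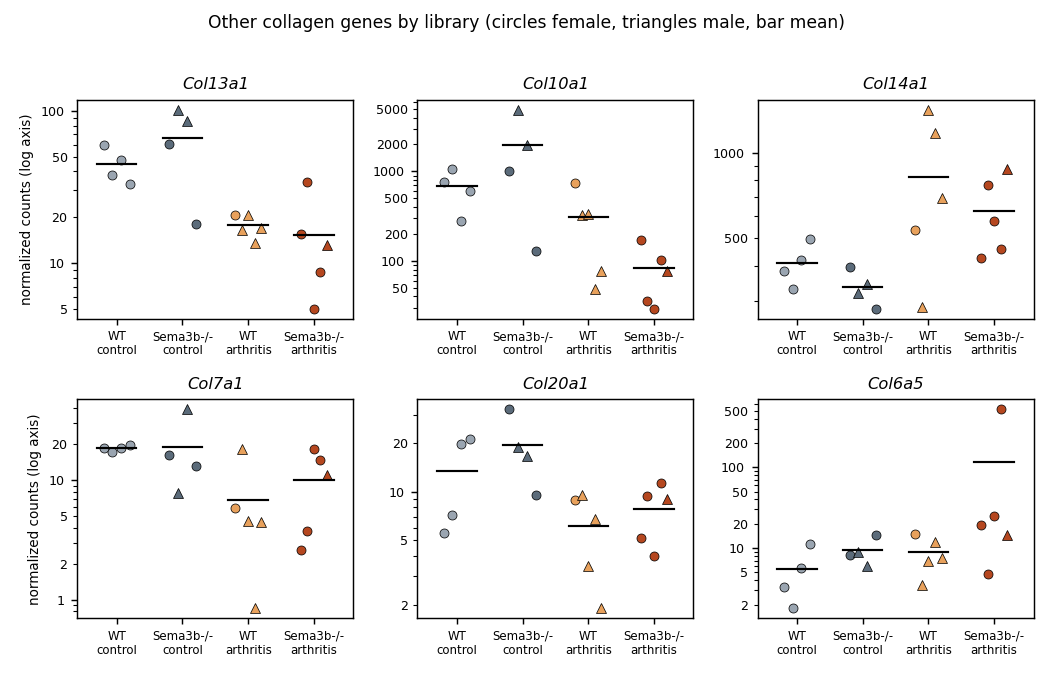
Normalized counts (log axes) of 6 collagen genes of other types in each library by group, with circles for female and triangles for male libraries and a bar at the group mean. Col13a1 and Col10a1 are lower in most arthritis libraries, Col14a1 is higher in most, and the mean of Col6a5 in Sema3b-/- arthritis is set by replicate 4 at 518.

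No collagen gene was called between Sema3b-/- and WT forepaws. In control forepaws 0 of 34 members were called by limma, where 0.0145% of all genes were called, and 0 had an unadjusted p under 0.05. In arthritic forepaws 0 of 34 were called, where 0.0217% of all genes were called, and 0 had an unadjusted p under 0.05. The interaction called 0 of 34, where 0.0% of all genes were called, again with 0 at an unadjusted p under 0.05. EdgeR and DESeq2 also called 0 members in each of these 3 comparisons, and the authors' deposited tables call 0 in both genotype comparisons, where they call 0.0% of genes in controls and 0.0108% in arthritis. The libraries of the genotypes overlapped for all 34 members: in controls 2.07% of genes were higher and 2.13% lower without overlap, and in arthritis 0.775% and 0.999%. The median log2 difference of the members in controls, Sema3b-/- against WT, was 0.36, with 26 of 34 positive, beside -0.01 over all genes. Sema3b-/- control replicates 2 and 3 were the highest of their group for most of these genes, and the counts share those libraries. The lowest p in controls was that of Col24a1 (0.75, SE 0.51, adjusted p = 0.905). In arthritis it was that of Col6a5 (1.73, SE 0.84, adjusted p = 0.567), through replicate 4. With 4 or 5 libraries a group and the spread above, changes of the size of these SEs were not detectable.

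Genes that fold, modify and crosslink procollagen, and those that break it down or bind it, were counted in the average effect, where 12.6% of all tested genes rose and 10.9% fell. Of 29 tested folding, modifying and crosslinking genes, 5 rose and 1 fell, together near the 23.5% of all genes called, with a median of 0.20 against -0.01 over all tested genes. P4ha3, an alpha subunit of prolyl 4-hydroxylase, rose by 1.58 (SE 0.40, adjusted p = 0.0108), from 230 to 351 among WT controls and 221 to 306 among Sema3b-/- controls to 122 to 1645 among WT arthritis and 749 to 1892 among Sema3b-/- arthritis libraries. Loxl3, a lysyl oxidase relative that crosslinks collagen, rose by 1.03 (adjusted p = 0.0104), and Glt25d1 (now Colgalt1), which adds galactose to hydroxylysine, by 0.72 (adjusted p = 0.00403). P4hb and P4ha1, the beta and another alpha subunit of the hydroxylase, rose by 0.56 and 0.64 (adjusted p = 0.012 and 0.0183). Pcolce2, an enhancer of procollagen C-proteinase, fell by 1.42 (adjusted p = 0.000968), from 635 to 1169 in controls to 121 to 794 in arthritis. Serpinh1 (HSP47, the collagen chaperone) changed by 0.47 (adjusted p = 0.194) and Lox by 1.02 (adjusted p = 0.0531).

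Of 11 genes of collagen breakdown and uptake, 1 rose and 1 fell, about the share over all tested genes (12.6% and 10.9%). Timp1, an inhibitor of matrix metalloproteinases, rose by 2.28 (SE 0.43, adjusted p = 0.00191), from 492 to 708 among WT controls and 531 to 1211 among Sema3b-/- controls to 296 to 4165 among WT arthritis and 3757 to 11315 among Sema3b-/- arthritis libraries. Timp3, the inhibitor bound to matrix, fell by 0.62 (adjusted p = 0.0215). The collagenases Mmp13 and Mmp14 changed by 0.20 and 0.51 (adjusted p = 0.697 and 0.344). Of 9 receptors, beside the same shares over all genes, 1 rose and 2 fell: Lair1, an inhibitory receptor of leukocytes for collagen, rose by 0.98 (adjusted p = 0.000432), while Itga10, the chondrocyte integrin chain, fell by 1.33 (adjusted p = 0.00211) and Ddr1, a collagen-binding kinase of epithelium, by 0.99 (adjusted p = 0.0159). Macrophage marker sums ran from 2174 to 3334 in controls and from 2753 to 5517 in arthritis, with 4 of 5 markers higher, and their part in the Lair1 value was not tested. Of 18 collagen-binding matrix genes 2 rose and 2 fell, about the share over all genes (12.6% and 10.9%): Ogn rose by 0.97 (adjusted p = 0.00173) and Thbs1 by 0.78 (adjusted p = 0.034), while Tnxb, whose loss loosens skin and joints, fell by 1.44 (adjusted p = 0.00156) and Prelp, an anchor between fibrils and basement membrane, by 0.82 (adjusted p = 0.000202).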

How the data were processed

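RNA from 18 forepaw libraries was measured by 3'-tag sequencing. Per the submitters' processing notes, the authors used BWA, the mm10 build and DESeq2 1.32; which counting tool, annotation, strand setting and molecular barcodes were used is not given in the sources. The deposited values are normalized counts (a signal: reads divided by a library size factor), and whole reads, recovered within 0.02 of a read for 100% of values, gave the depth of 1732783 to 19464892 reads. The authors' deposited comparison tables hold log2 fold changes and p-values, copied here only where named. Because the values were normalized and not raw counts, the main test was limma 3.58.1 (R 4.3.3; trend, robust) on log2(value + 1) of all 18 libraries with 4 group means. Fold changes are on that scale, which understates the change of low genes. The test kept genes that reached 10 normalized counts in 4 or more libraries, and p-values were adjusted over all of them by Benjamini-Hochberg, with calls under 0.05. EdgeR 4.0.16 and DESeq2 1.42.0 on the recovered reads, other scalings, pseudocounts, filters, covariates and left-out libraries were alternatives. On simulated data for Sema3b-/- arthritis against control (13619 genes), the main test recovered 53% of log2 changes of 1 and 97% of log2 changes of 2. The changed genes were drawn only from those above the median mean, and only the Sema3b-/- arthritis group was changed. These shares therefore do not cover genes of lower counts, nor do they hold for each member, since spreads differ between genes.

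The members and lists were chosen with earlier results of these data known. Genes given in full are the members called in any comparison, the member with the highest mean in each class and, where under 5 were called in an arthritis comparison, the 5 with the lowest p. Of each pathway list, up to 4 called genes with the lowest p are named. Other genes named were chosen after their values were seen. The labels number Sema3b-/- control replicates 3 and 4 alike (the second was numbered 4), and the header for Sema3b-/- arthritis replicate 5 carries a control abbreviation while its title and treatment label say arthritis, which were followed. In the table, 26 gene names had been turned into dates; none is a member. Reads without stated molecular barcodes are not independent molecules, so depth limits cover counting error only.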

Additional observations from a re-analysis of the deposited data

Results flagged for a closer look

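In 136 checks of a collagen gene in a group of 4 or 5 libraries, 6 had 1 library farther from the rest than Dixon's 95% limit allows (4.41%), and chance alone gives about 1 in 20. Col6a5, a type VI chain, was at 518.4 normalized counts in Sema3b-/- arthritis replicate 4 and at 4.74 to 25.1 in the other 4 libraries of the group. Col7a1, the anchoring fibril gene, was highest in WT arthritis replicate 2, at 18.3 against 0.851 to 5.91, and that library also had the highest keratinocyte marker sum of its group (89593). Col8a1, a short-chain collagen, was at 277.7 in WT control replicate 3 and at 161 to 178 in the other WT controls. Col4a5, a basement membrane chain, was at 4.05 in Sema3b-/- control replicate 1, the shallowest library, where this is 1 read, and at 21.8 to 22.8 in the other 3. Col25a1, a membrane collagen, was at 2.398 in Sema3b-/- control replicate 4 against 26.1 to 29.6 in the others of its group, and at 18.3 in Sema3b-/- arthritis replicate 4 against 2.78 to 6.48.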

How the results depend on the processing

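The 8 calls of named genes kept their direction in every alternative run, and no setting moved the median of all genes by over 0.1 on the log2 scale. The counts of called collagen genes were unchanged at 0 in both genotype comparisons and the interaction in every alternative. In WT arthritis (0 called), DESeq2 gave 3, fitting only the 2 groups gave 1, and leaving out single libraries gave 0 to 2, the 2 without WT arthritis replicate 2. In Sema3b-/- arthritis (2 called), edgeR gave 7, DESeq2 9, only the 2 groups 1 (Col14a1, higher, with both genes of the main test lost), a term for titles ending in RA 1, and leaving out the 4 genes that cartilage also makes 1 (fewer genes counted). Leaving out single libraries gave 1 to 10: 1 without control replicate 2 or 3, and 10 without control replicate 4. In the average effect (6 called), edgeR gave 10, DESeq2 12, and the title term 2. Sex as a term gave 7, 0 of them higher: Col14a1, Col20a1 and Col7a1 were lost and Col15a1, Col1a2, Col4a2 and Col9a3 gained. Leaving out single libraries gave 3 to 11: 3 without WT control replicate 3 or 4 or Sema3b-/- control replicate 3, 11 without Sema3b-/- control replicate 4, and 10 without WT arthritis replicate 2. In alternatives chosen after seeing the data, female libraries only gave 1 in Sema3b-/- and 1 on average, and leaving out Sema3b-/- control replicates 2 and 3 gave 0 and 2. The replicate numbers did not pair the libraries: deviations of same-numbered libraries correlated at -0.66 to 0.41 (median 0.02) over 25 pairs, and 3 of 18 libraries were closest to their own number. With the number as a replicate block the average effect called 3 (Col14a1, Col7a1 and Col20a1 lost, with adjusted p = 0.0699, 0.0817 and 0.131), while WT and Sema3b-/- arthritis still called 0 and 2. The causes of these changes were not tested beyond the smaller numbers of libraries or genes. Shares of all genes called under the alternatives are not given here, so these counts have no background beside them. Genes near the filter, such as Col20a1 and Col4a4, rest on few reads.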
